A study of Mus musculus with 10 samples.

Results

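The desmosome genes described here were 9 genes of the mouse that encode parts of the desmosome, namely the desmosomal cadherins Dsg2 and Dsc2, the plaque proteins Jup, Pkp1, Pkp2 and Pkp3, and the plakins Dsp, Ppl and Evpl. They were taken by symbol from the 24454 genes of the counts table, and all 9 were in it. RNA was sequenced from NMuMG/E9 cells, an epithelial line from normal mouse mammary gland, of which E9 is a single subclone (subclone 9). In all groups the cells had been transfected with siRNA at 20 nM and were harvested 3 d later. The groups were siIrf1 TGFbeta (siRNA against Irf1, with TGFbeta1 at 2 ng/ml for the last 2 d; 3 libraries, replicates 1 to 3), siCtr TGFbeta (control siRNA with the same TGFbeta; 2 libraries, replicates 2 and 3), siIrf1 0 d (siRNA against Irf1 without TGFbeta; 3 libraries, replicates 1 to 3) and siCtr 0 d (control siRNA without TGFbeta; 2 libraries, replicates 1 and 3). TGFbeta was given to start the epithelial-mesenchymal transition (EMT), and the study asked what Irf1, an interferon regulatory factor, does in it.

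Desmosomes are spot-like junctions that tie the keratin filaments of neighbouring epithelial cells to each other. Their cadherins, the desmogleins and desmocollins, meet in the gap between the cells, and inside the cell their tails bind plakoglobin (Jup) and the plakophilins, which hold desmoplakin (Dsp), the plakin that attaches the keratins. Simple epithelia such as that of the mammary gland mainly use Dsg2, Dsc2 and Pkp2, whereas Pkp1, Dsg1 and Dsg3 are best known from stratified epithelia. Loss of desmosomes is a known part of EMT.

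Totals were 27547649 to 67301646 counts per library, and levels are given in CPM, counts scaled to the effective size of each library. Irf1 was lower in each siIrf1 library (36.5 to 64.1 CPM) than in each siCtr library (106 to 148 CPM). The luminal keratins Krt8 and Krt18 were high everywhere, and summed mammary luminal markers were 5900 to 13300 CPM. Of that list Epcam had 1 count in all 10 libraries and Prlr none. The other marker lists were low. Their sums over all libraries were 64.5 to 150 CPM for basal and myoepithelial markers, 0.0909 to 22.7 CPM for fibroblast and pericyte markers (led by Pdgfrb, at 13.8 to 21.5 CPM with TGFbeta), 0 to 5.92 CPM for endothelial, 1.82 to 6.83 CPM for immune, 0 to 0.167 CPM for adipocyte and 1.39 to 3.09 CPM for keratinocyte markers. Libraries differed in how level went with base composition: the mean deviation of genes in the lowest quartile of GC content minus that of the highest quartile was 0.66, -0.39 and 0.77 (log2) in siIrf1 TGFbeta, -0.46 and -0.46 in siCtr TGFbeta, 0.74, 0.19 and 0.93 in siIrf1 0 d, and -1.37 and -0.61 in siCtr 0 d. The siCtr 0 d library of replicate 1 stood lowest in this index. Nothing in the labels states that the replicates were separate cultures, and the p-values therefore rest on a spread that may be technical.

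Promoter sequence was at hand for 2 of the 9 genes, Jup and Dsp, from RefSeq (GRCm38.p6), and is shown because both genes are high in all groups, while TGFbeta led to a call for Jup (in siIrf1 cells) and not for Dsp. The windows run from 200 bases before to 20 bases after the start in the promoter table, 5′ to 3′ on the gene's strand, and capitals mark CAGGTG, an E-box of the kind bound by Snail and Zeb repressors. Jup lies on the minus strand (chr11:100397771-100397990) and Dsp on the plus strand (chr13:38151094-38151313). The start used for Jup, 100397790, lies 49 bases inside the gene's RefSeq span given below, so that 69 bases of its window are within that span, and that used for Dsp is the 5′ end of its span.
Jup promoter: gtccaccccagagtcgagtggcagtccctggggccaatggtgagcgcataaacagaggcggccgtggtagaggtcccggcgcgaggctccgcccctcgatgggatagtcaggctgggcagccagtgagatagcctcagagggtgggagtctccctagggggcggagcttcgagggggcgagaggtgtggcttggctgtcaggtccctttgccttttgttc
Dsp promoter: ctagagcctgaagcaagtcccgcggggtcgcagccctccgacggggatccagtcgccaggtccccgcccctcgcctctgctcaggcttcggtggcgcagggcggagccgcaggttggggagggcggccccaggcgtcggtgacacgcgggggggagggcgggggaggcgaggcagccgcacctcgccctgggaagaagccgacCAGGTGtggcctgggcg
CAGGTG occurred 1 time in the Dsp window, starting at base 4 after the start, and not in the Jup window. It was searched on both strands and was present in 15.1% of the 32851 RefSeq windows of this length. The core bound by interferon regulatory factors, searched as GAAA repeated after a spacer of 2 bases (2.5% of windows), and CAGAC, a Smad-binding element (39.1% of windows), were not in either window.

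Among the cadherins, desmoglein 2 (Dsg2, Entrez gene 13511, chromosome 18) was the one with a sizeable level. Positions are those of GRCm38.p6. It had 54.5, 41.4 and 72.8 CPM in siIrf1 TGFbeta, 31.4 and 27.7 CPM in siCtr TGFbeta, 121, 136 and 138 CPM in siIrf1 0 d, and 23.2 and 61.3 CPM in siCtr 0 d. The siIrf1 0 d libraries were highest and overlapped no other group, and the 2 siCtr 0 d libraries were far apart. Desmocollin 2 (Dsc2, gene 13506, chromosome 18), its usual partner, was close to absent: it had 8 counts over the siIrf1 TGFbeta libraries, 1 in siCtr TGFbeta, 10 in siIrf1 0 d and 0 in siCtr 0 d. It did not pass the filter on low counts, and the other 8 members did.

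Plakoglobin (Jup, gene 16480, chr11:100368856-100397839, minus strand), which links the cadherin tails to desmoplakin, had 625, 789 and 538 CPM in siIrf1 TGFbeta, 767 and 670 CPM in siCtr TGFbeta, 277, 422 and 265 CPM in siIrf1 0 d, and 474 and 501 CPM in siCtr 0 d. Each library with TGFbeta was above each library without it. Plakophilin 2 (Pkp2, gene 67451, chr16:16213345-16272712, plus strand), the plakophilin of simple epithelia and heart, had 203, 195 and 190 CPM in siIrf1 TGFbeta, 182 and 219 CPM in siCtr TGFbeta, 108, 97.8 and 114 CPM in siIrf1 0 d, and 95.8 and 87.0 CPM in siCtr 0 d. Here too the libraries with TGFbeta lay above all without it, and with TGFbeta the siRNAs overlapped.

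Plakophilin 1 (Pkp1, gene 18772, chr1:135871394-135919207, minus strand), the plakophilin of the upper layers of stratified epithelia, had 2.60, 2.47 and 1.93 CPM in siIrf1 TGFbeta, 25.3 and 23.4 CPM in siCtr TGFbeta, 0.0942, 0.136 and 0.0264 CPM in siIrf1 0 d, and 0.0785 and 0 CPM in siCtr 0 d. The levels fell into 3 steps: about 0 without TGFbeta, low in siIrf1 TGFbeta and highest in siCtr TGFbeta. Plakophilin 3 (Pkp3, gene 56460, chr7:141078229-141090511, plus strand), present in most epithelia, had 1.03, 1.24 and 0.451 CPM in siIrf1 TGFbeta, 3.72 and 4.13 CPM in siCtr TGFbeta, 0.534, 0.181 and 0.185 CPM in siIrf1 0 d, and 1.22 and 1.15 CPM in siCtr 0 d. It had 7 to 200 counts per library, fewest in siIrf1 0 d. Its siIrf1 TGFbeta libraries overlapped those of siCtr 0 d.

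Desmoplakin (Dsp, gene 109620, chr13:38151294-38198577, plus strand), the plakin that anchors keratin to the plaque, had 1110, 681 and 1380 CPM in siIrf1 TGFbeta, 620 and 542 CPM in siCtr TGFbeta, 599, 721 and 736 CPM in siIrf1 0 d, and 351 and 733 CPM in siCtr 0 d. Of the 4 comparisons, only siIrf1 TGFbeta against siCtr TGFbeta was free of overlap, and siCtr 0 d spanned most of the other values. Periplakin (Ppl, gene 19041, chr16:5086291-5132481, minus strand), a plakin of desmosomes and of the cornified envelope, had 54.6, 63.0 and 60.5 CPM in siIrf1 TGFbeta, 81.9 and 71.5 CPM in siCtr TGFbeta, 214, 224 and 205 CPM in siIrf1 0 d, and 512 and 680 CPM in siCtr 0 d. Its 4 groups were all apart from each other, with the lowest level in siIrf1 TGFbeta. Envoplakin (Evpl, gene 14027, chr11:116220559-116238165, minus strand), the partner of periplakin in the cornified envelope, had 0.620, 1.33 and 0.662 CPM in siIrf1 TGFbeta, 1.28 and 0.733 CPM in siCtr TGFbeta, 0.722, 1.61 and 0.659 CPM in siIrf1 0 d, and 0.157 and 0.546 CPM in siCtr 0 d. These were 4 to 92 counts per library, and apart from the low siCtr 0 d libraries the groups overlapped.

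**Figure D1:**
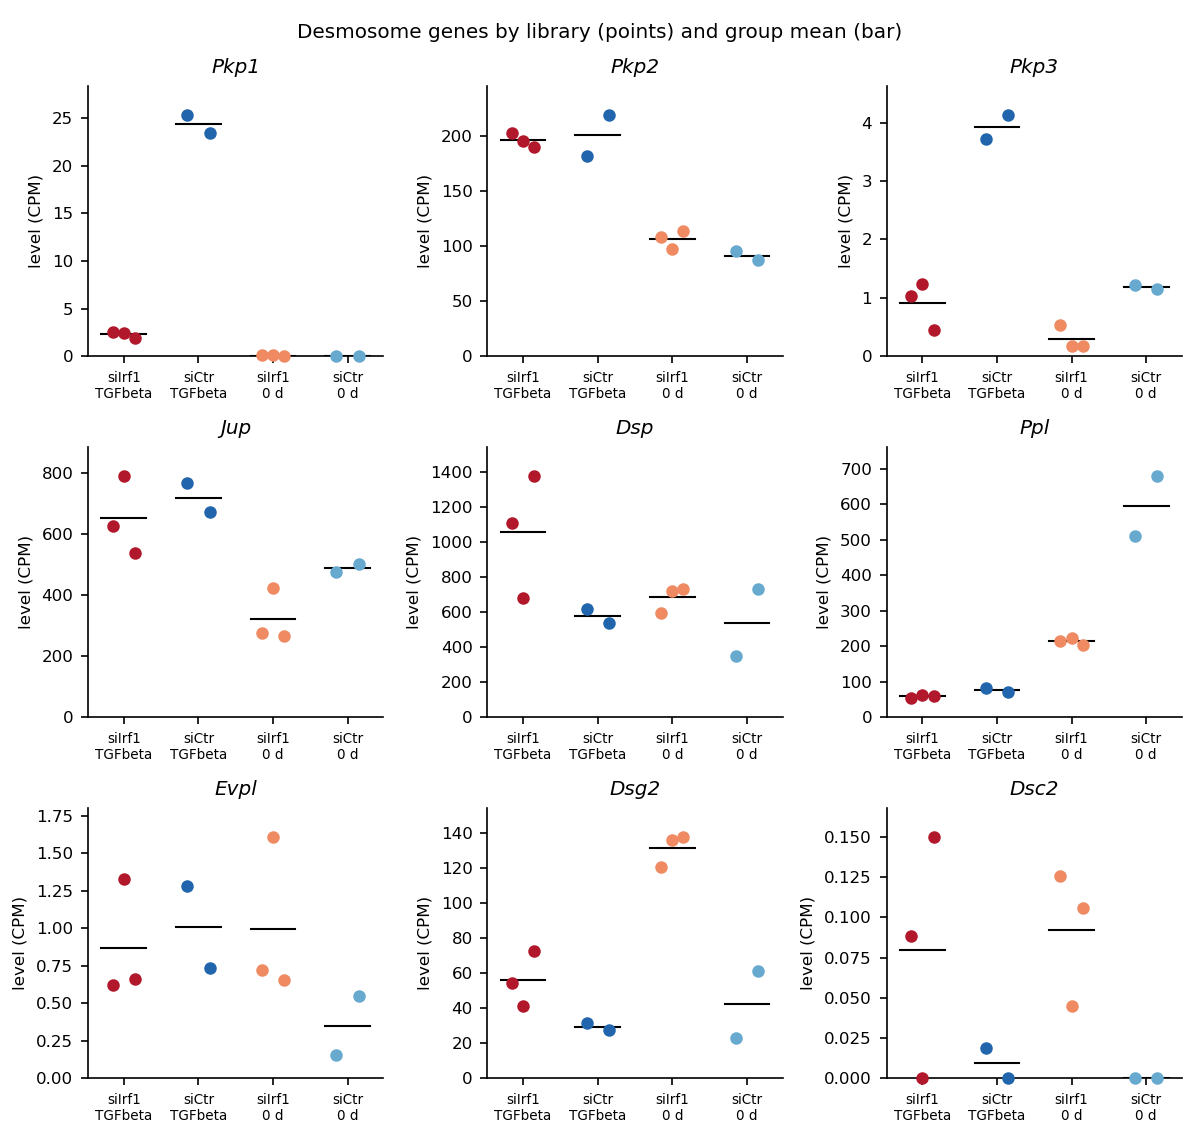
Levels of the 9 desmosome genes (CPM, vertical axes from 0) in each of the 10 libraries (points) with the group mean (bar), by group. Pkp1 stands at 23.4 and 25.3 CPM in siCtr TGFbeta and at 2.60 CPM or less in all other libraries, and Ppl at 512 and 680 CPM in siCtr 0 d and at 224 CPM or less elsewhere.

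Per length of transcript (RPKM, the CPM divided by the deposited gene length in kilobases), the order of the genes shifted between groups. In siIrf1 TGFbeta mean levels ran from Jup (130 RPKM) and Dsp (110 RPKM), whose libraries overlapped, to Pkp2 (67.9 RPKM), then Dsg2 and Ppl (9.82 and 9.46 RPKM, overlapping) and Pkp1 (0.499 RPKM). In siCtr TGFbeta Jup was at 143 RPKM, above Pkp2 and Dsp (69.3 and 60.6 RPKM, overlapping), Ppl (12.2 RPKM), and Pkp1 and Dsg2 (5.22 and 5.16 RPKM, overlapping). In siIrf1 0 d it was Dsp and Jup (71.5 and 64.2 RPKM, overlapping), Pkp2 and Ppl (36.9 and 34.1 RPKM, overlapping) and Dsg2 (23.0 RPKM). In siCtr 0 d Jup and Ppl came first (97.3 and 94.9 RPKM, overlapping), ahead of Dsp (56.5 RPKM), Pkp2 (31.6 RPKM) and Dsg2 (7.38 RPKM). Periplakin thus stood next to plakoglobin at the top only in siCtr 0 d, and the members not named were at 1.29 RPKM or less in each group. The deposited length of Jup, 5009 bases, exceeds the 3205 bases of its longest GENCODE M21 transcript, and its RPKM would be higher with the shorter length.

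The makeup of the plakin transcripts differed between all 4 groups. Ppl was 6.99, 12.4 and 6.25% of the summed plakin RPKM in siIrf1 TGFbeta, 16.8 and 16.7% in siCtr TGFbeta, 35.3, 32.1 and 29.8% in siIrf1 0 d, and 69.0 and 58.6% in siCtr 0 d. The rest was nearly all Dsp, since Evpl did not exceed 0.258% in any library. The ratio of Ppl to Dsp (RPKM) was accordingly 0.0667 to 0.141 in siIrf1 TGFbeta, 0.201 and 0.202 in siCtr TGFbeta, 0.425 to 0.546 in siIrf1 0 d, and 2.23 and 1.42 in siCtr 0 d. Of Pkp1, Pkp2 and Pkp3 transcripts nearly all were Pkp2, at 90.5% or more of their summed RPKM. Pkp1 reached 7.79 and 6.11% in siCtr TGFbeta, against 0.781, 0.772 and 0.621% in siIrf1 TGFbeta and 0.0856% or less without TGFbeta. Pkp4, which is not a member, was left out of that sum. Its mean was 59.4 RPKM in siIrf1 TGFbeta, 43.2 RPKM in siCtr TGFbeta, 60.1 RPKM in siIrf1 0 d and 48.6 RPKM in siCtr 0 d. Without TGFbeta these means were above those of Pkp2 given above.

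**Figure D2:**
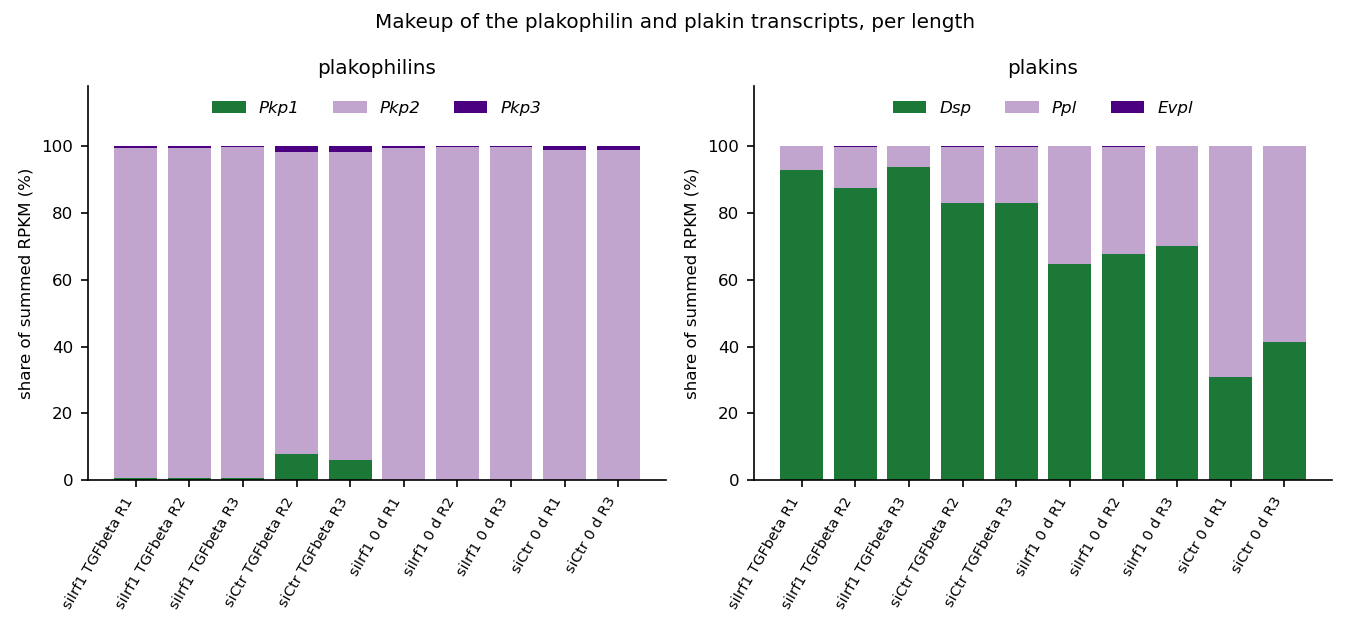
Shares (%) of the summed RPKM of the plakophilins Pkp1, Pkp2 and Pkp3 (left) and of the plakins Dsp, Ppl and Evpl (right) in each library, by group (R is the replicate). Ppl takes 69.0 and 58.6% of the plakins in siCtr 0 d and 6.25 to 12.4% in siIrf1 TGFbeta, and Pkp1 is visible mainly in siCtr TGFbeta.

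The first comparison asked how the desmosome genes responded to TGFbeta in cells with control siRNA. Pkp1, Pkp2 and Pkp3 rose and periplakin fell, while plakoglobin, desmoplakin, envoplakin and desmoglein 2 did not pass the test. A gene is called here at an adjusted p under 0.05 (edgeR's quasi-likelihood test, Benjamini-Hochberg over the 13135 genes tested), and changes are log2 fold changes ± SE. Of the 8 members tested, 3 were called up and 1 down, beside 32.5% of all genes tested called, 16.1% up and 16.3% down, and the median change was 0.85 over the members and 0.02 over all genes. The libraries of the groups did not overlap for 6 of the 8 members, beside 71.9% of all genes. Both counts include Pkp1, which passed the filter on low counts only through libraries with TGFbeta, where it is high. Pkp1 therefore adds no support to them. Fewer cells that express a gene and less RNA per cell cannot be told apart in such bulk samples.

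Pkp1 rose by 9.34 ± 0.631 (adjusted p = 5.15e-06). The siCtr 0 d libraries had only 2 counts of it, against 2063 with TGFbeta, a ratio of 720 with a 95% interval of 199 to 5950 for counting error alone. The fitted change therefore rested on those 2 counts, and was 12.99 without siCtr 0 d replicate 1 and 8.34 without replicate 3. Pkp2 rose by 1.13 ± 0.158 (adjusted p = 4.03e-04), and Pkp3 by 1.73 ± 0.495 (adjusted p = 0.0236). The call of Pkp3 was lost on leaving out any siCtr library, be it siCtr 0 d replicate 1 (1.81) or 3 (1.80) or siCtr TGFbeta replicate 2 (1.89) or 3 (1.73). Ppl fell by 2.96 log2 units (SE 0.186, adjusted p = 4.16e-06), with 76.7 ± 7.39 CPM with TGFbeta and 596 ± 119 CPM without it (SD, n = 2 each).

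Jup was higher in both libraries with TGFbeta, with a difference of 0.56 ± 0.25 (adjusted p = 0.112). Evpl had 1.48 ± 0.682 (adjusted p = 0.121), with a call only without siCtr 0 d replicate 3 (2.80). The values of Dsp (0.10 ± 0.363, adjusted p = 0.853) and Dsg2 (-0.52 ± 0.391, adjusted p = 0.335) depended on which siCtr 0 d library was used. Without replicate 1 Dsp was -0.29 and Dsg2 -1.01, with a call for Dsg2, and without replicate 3 they were 0.85 and 0.47. Dsg2 was also called after correction for gene length and GC content (-0.76, adjusted p = 0.0414).

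With Irf1 knocked down, TGFbeta again raised Pkp1, Pkp2 and Pkp3 and lowered periplakin, and plakoglobin and desmoglein 2 were called as well. Of the 8 members tested 4 were called up and 2 down, beside 21.3% of all genes tested called, 11.6% up and 9.71% down, with a median change of 0.75 over the members and 0.02 over all genes. The groups did not overlap for 5 of the 8, beside 35.8% of all genes. Pkp1, which passed the filter only through libraries with TGFbeta, is in both counts and adds no support to them. Pkp1 rose by 4.69 ± 0.445 (adjusted p = 4.61e-05), with 323 counts over the siIrf1 TGFbeta libraries and 10 over siIrf1 0 d, and Pkp2 by 0.88 ± 0.128 (adjusted p = 7.21e-04). Jup rose by 1.02 ± 0.206 (adjusted p = 0.00530), to 651 ± 127 CPM with TGFbeta, against 321 ± 87.2 CPM without (SD, n = 3 each). Ppl fell by 1.85 (SE 0.146, adjusted p = 1.54e-05), with 59.4 ± 4.32 CPM with TGFbeta and 214 ± 9.51 CPM without it (SD, n = 3 each). These 4 genes were called under every alternative tried, including a correction for gene length and GC content, after which the change was 0.59 for Jup and -2.20 for Ppl.

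Pkp3 rose by 1.68 ± 0.475 (adjusted p = 0.0301), but its libraries overlapped between the groups. Its call was lost on leaving out siIrf1 0 d replicate 2 (1.40) or 3 (1.43), or siIrf1 TGFbeta replicate 1 (1.61) or 2 (1.36). It was also lost in a fit of these 2 groups alone (1.68) and after correction for length and GC (1.28, adjusted p = 0.0501). It was 2.33 without siIrf1 0 d replicate 1. Dsg2 fell by 1.23 (SE 0.321, adjusted p = 0.0211), with 56.2 ± 15.8 CPM with TGFbeta and 132 ± 8.99 CPM without it (SD, n = 3 each). Leaving out siIrf1 0 d replicate 2 (-1.21) or 3 (-1.19), or siIrf1 TGFbeta replicate 1 (-1.20) or 2 (-1.05), ended that call. Corrected for length and GC it was -1.35 (adjusted p = 9.21e-04). Dsp (0.63 ± 0.298, adjusted p = 0.181) was called only without siIrf1 TGFbeta replicate 2 (0.86), its lowest library with TGFbeta, and Evpl was not called (-0.17 ± 0.490, adjusted p = 0.869).

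**Figure D3:**
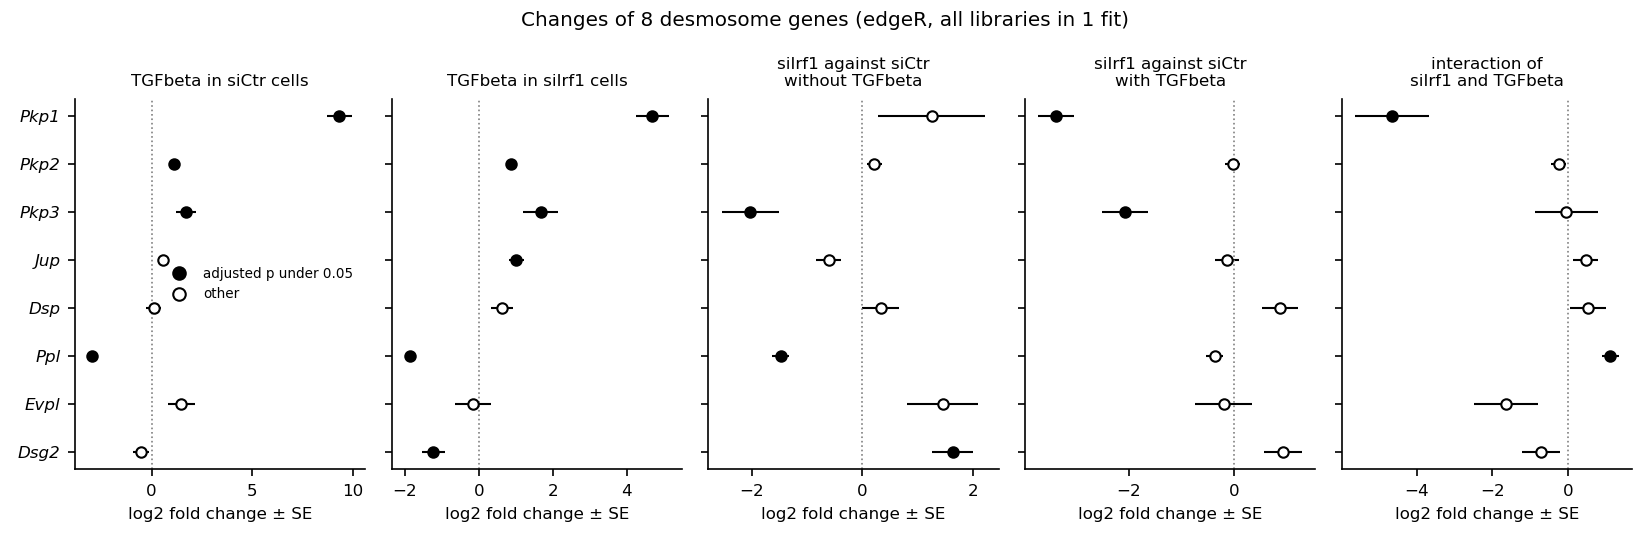
Log2 fold change ± SE (edgeR) of the 8 desmosome genes tested, in a panel for each comparison and for the interaction (the change with TGFbeta in siIrf1 cells minus that in siCtr cells). Filled points have an adjusted p under 0.05. Pkp1 rises by 9.34 in siCtr and 4.69 in siIrf1 cells, and each panel has its own scale.

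The next comparison asked what the knockdown of Irf1 did to these genes in epithelial cells without TGFbeta. Desmoglein 2 rose, and periplakin and plakophilin 3 fell. Of the 8 members tested 1 was called up and 2 down, beside 31.8% of all genes tested called, 16.3% up and 15.5% down, with a median change of 0.28 over the members and -0.03 over all genes. The groups did not overlap for 6 of the 8, beside 62.3% of all genes. Dsg2 was at 132 ± 8.99 CPM in siIrf1 0 d (SD, n = 3) and 42.3 ± 26.9 CPM in siCtr 0 d (SD, n = 2), and rose by 1.64 ± 0.376 (adjusted p = 0.0106). Its change was 1.09 without siCtr 0 d replicate 1 and 2.57 without replicate 3, with a call in both cases. The GC index given above was also higher in each siIrf1 0 d library than in each siCtr 0 d library, and Dsg2 has a transcript of 47.5% GC. Corrected for length and GC, Dsg2 rose by 1.45 (adjusted p = 0.00243).

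Ppl fell by 1.48 (SE 0.156, adjusted p = 3.87e-04), with 214 ± 9.51 CPM in siIrf1 0 d (SD, n = 3) and 596 ± 119 CPM in siCtr 0 d (SD, n = 2), and was called under every alternative tried. Pkp3 fell by 2.02 (SE 0.521, adjusted p = 0.0167), with 32 counts over the siIrf1 0 d libraries and 69 over siCtr 0 d. Its call was lost without siCtr 0 d replicate 1 (-2.00) or siIrf1 0 d replicate 3 (-1.78), and it was -2.67 without siIrf1 0 d replicate 1. Jup was lower in each siIrf1 0 d library than in each siCtr 0 d library (-0.60 ± 0.226, adjusted p = 0.0662). It was called with the replicate number as a block (-0.78, adjusted p = 0.00858) and without siIrf1 0 d replicate 2 (-0.85) or siIrf1 TGFbeta replicate 2 (-0.60), and was -0.28 after correction for length and GC (adjusted p = 0.0648). With the correction and the block together it was called (-0.32, adjusted p = 0.0436).

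Pkp1 had 10 counts over siIrf1 0 d and 2 over siCtr 0 d, a ratio of 2.56 with a 95% counting interval of 0.546 to 24.1, and was not called (adjusted p = 0.336). Evpl (1.46 ± 0.644, adjusted p = 0.109), Pkp2 (0.22 ± 0.143, adjusted p = 0.249) and Dsp (0.34 ± 0.334, adjusted p = 0.456) were not called either. The first was called without siCtr 0 d replicate 3 (2.72), and it and Pkp2 were called after correction for length and GC (1.72 and 0.40). Dsp was called without siCtr 0 d replicate 3 (1.03), the library with which it reached 733 CPM.

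With TGFbeta present, the knockdown left the plakophilins Pkp1 and Pkp3 lower than control siRNA did, and no other member was called. Of the 8 members tested 0 were called up and 2 down, beside 18% of all genes tested called, 9.72% up and 8.28% down, with a median change of -0.17 over the members and 0.05 over all genes. The groups did not overlap for 5 of the 8, beside 46.3% of all genes. Pkp1 was at 2.33 ± 0.357 CPM in siIrf1 TGFbeta (SD, n = 3) and 24.4 ± 1.34 CPM in siCtr TGFbeta (SD, n = 2), and fell by 3.38 (SE 0.337, adjusted p = 2.27e-04). It was called under every alternative tried, at -3.52 to -3.24. Pkp3 was at 0.909 ± 0.410 CPM in siIrf1 TGFbeta (SD, n = 3) and 3.93 ± 0.289 CPM in siCtr TGFbeta (SD, n = 2), and fell by 2.07 (SE 0.431, adjusted p = 0.00955). Its call was lost without siCtr TGFbeta replicate 2 (-2.20) or 3 (-2.04).

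Dsp and Dsg2 were higher in each siIrf1 TGFbeta library than in each siCtr TGFbeta library and did not pass the test (0.87 ± 0.340, adjusted p = 0.112, and 0.93 ± 0.366, adjusted p = 0.114). Both were called after correction for length and GC (0.83 and 0.86) and without either siCtr 0 d library (0.81 in both cases for Dsp and 0.88 for Dsg2). Dsp was also called without siIrf1 TGFbeta replicate 2 (1.10), the siIrf1 TGFbeta library whose GC index was near those of siCtr TGFbeta. Ppl was slightly lower in all siIrf1 TGFbeta libraries (-0.37 ± 0.157, adjusted p = 0.139). Jup (-0.14 ± 0.227, adjusted p = 0.729), Pkp2 (-0.03 ± 0.142, adjusted p = 0.916) and Evpl (-0.19 ± 0.543, adjusted p = 0.849) were within the spread of the libraries.

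Whether TGFbeta acted differently on these genes with and without the knockdown of Irf1 was tested by the interaction, the change with TGFbeta in siIrf1 cells minus that in siCtr cells. It was called for 2 of the 8 members, 1 up and 1 down, beside 4.12% of all genes tested called, 2.8% up and 1.32% down. The 1 down was Pkp1, which passed the filter only through libraries with TGFbeta, so its test is given as description. For Pkp1 the interaction was -4.64 ± 0.979 (adjusted p = 0.0295), so that its rise was smaller in siIrf1 cells. It sets 2 and 10 counts without TGFbeta against each other, and it was -8.30 without siCtr 0 d replicate 1 and -3.64 without replicate 3. Its call was lost without siIrf1 0 d replicate 1 (-4.60) or 2 (-4.07) and without siCtr TGFbeta replicate 2 (-4.66) or 3 (-4.77). For Ppl it was 1.11 ± 0.224 (adjusted p = 0.0237): its fall was smaller in siIrf1 cells, which already had the lower level without TGFbeta. That call was lost without siCtr 0 d replicate 3 (0.77), siIrf1 0 d replicate 1 (1.11) or 3 (1.08), or siCtr TGFbeta replicate 2 (1.13) or 3 (0.95), and with a stricter filter on low counts (1.03, adjusted p = 0.0511). The other 6 members had adjusted p of 0.339 to 0.986, although Dsg2 was called without siCtr 0 d replicate 3 (-1.69). Each comparison for TGFbeta shares a group of libraries with each comparison for siIrf1, and the interaction uses all groups.

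Of 10 other genes of desmosomes and their relatives (Dsg1a, Dsg1b, Dsg1c, Dsg3, Dsg4, Dsc1, Dsc3, Pkp4, Perp and Cdsn), 6 passed the filter. Dsg1a, Dsg1c and Dsg4 passed it only through siIrf1 libraries, where they are high, so no count over the list is given and the genes are described singly. Cdsn, corneodesmosin, rose with TGFbeta, by 2.77 in siIrf1 cells and 4.21 in siCtr cells (adjusted p = 3.27e-05 and 9.96e-06), and was at 3.61 to 4.78 CPM in siIrf1 TGFbeta, 7.59 and 10.7 CPM in siCtr TGFbeta, and 0.739 CPM or less without TGFbeta. Perp, a membrane protein of desmosomes, had 115 ± 15.3 CPM in siIrf1 TGFbeta (SD, n = 3) and 37.5 ± 1.66 CPM in siCtr TGFbeta (SD, n = 2), a rise of 1.61 ± 0.211 (adjusted p = 8.92e-04). It was called whichever library was left out (1.5 to 1.67). Without TGFbeta, a comparison for which Perp was chosen after its values were seen, it was at 58.9 to 88.5 CPM in siIrf1 0 d and at 42.4 and 47.8 CPM in siCtr 0 d (0.78, adjusted p = 0.0178). That call was lost without either siCtr 0 d library or without siIrf1 0 d replicate 1 or 3 (0.67 to 0.94 over the libraries left out).

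The genes Dsg1a, Dsg1b, Dsg1c and Dsg4 are desmogleins of skin and hair that lie with Dsg2, Dsg3 and the desmocollins in a cluster on chromosome 18. Dsg1a, Dsg1b and Dsg1c are close copies, between which the counting could have split reads. All were rarely read. Summed over the 8 cadherin genes other than Dsg2, libraries had 32, 30 and 28 counts in siIrf1 TGFbeta, 10 and 2 in siCtr TGFbeta, 93, 151 and 116 in siIrf1 0 d, and 2 and 10 in siCtr 0 d. The siIrf1 0 d libraries were highest, at 2.92 to 3.42 CPM, against 0.0785 and 0.303 CPM in siCtr 0 d. By total counts Dsg1c was 12.9-fold higher in siIrf1 0 d than in siCtr 0 d (151 against 6 counts, 95% counting interval 5.79 to 35.7) and Dsg4 12-fold (117 against 5 counts, 5.00 to 37.6). Dsg1a and Dsg1b, with 36 and 28 counts in siIrf1 0 d and 0 in siCtr 0 d, were at least 6.15-fold and 4.79-fold higher, by a floor of 3 counts over the group. For Dsc3 the ratio was 9.23 (18 against 1 counts, 1.46 to 385), and Dsc1 and Dsg3 had 0 counts in both groups.

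Dsg1c and Dsg4 passed the filter only through siIrf1 libraries, so their tests are given as description and add no support to the counts. In edgeR's fit the rise without TGFbeta was 3.65 ± 0.629 for Dsg1c (adjusted p = 0.00357) and 3.54 ± 0.536 for Dsg4 (adjusted p = 0.00163). Over the libraries left out it was 3.08 to 5.01 for Dsg1c and 3.03 to 4.65 for Dsg4. Corrected for length and GC it was 2.86 and 3.46. Dsg4 was also higher with TGFbeta (61 counts over siIrf1 TGFbeta and 3 over siCtr TGFbeta, a ratio of 12.5 with a 95% counting interval of 4.08 to 62.3; 3.6 ± 0.614, adjusted p = 0.00359), a call lost without siCtr TGFbeta replicate 2. Dsg1c had 3 counts in siIrf1 TGFbeta and 0 in siCtr TGFbeta. In siIrf1 cells it fell with TGFbeta (adjusted p = 2.04e-04), to 3 counts against 151, a ratio of 0.0166 with a 95% counting interval of 0.00339 to 0.0495. Dsg2, in the same cluster, was highest in siIrf1 0 d as well. Of the keratinocyte markers, Krt1, Lor and Dsc1 had 0 counts over the siIrf1 0 d libraries, Dsg1a had 36, and Krt10 had 189 (1.19 to 1.95 CPM, against 2.63 and 3.06 CPM in siCtr 0 d; -0.81, adjusted p = 0.065). Markers of other cell types were also called up at such low levels. Of 5 immune markers 3 were tested and 1 was called up, and the same held for 5 fibroblast and pericyte markers, beside 16.3% of all genes called up. The leukocyte gene Ptprc had 91 counts over siIrf1 0 d and 2 over siCtr 0 d (edgeR, adjusted p = 0.00532). The fibroblast gene Dcn had 52 over siIrf1 0 d and 0 over siCtr 0 d (edgeR, adjusted p = 0.0104). Both are the genes counted above and passed the filter only through siIrf1 libraries. Their tests are therefore given as description, and the counts of these markers add no support. The summed immune markers were at 2.1 to 2.76 CPM in siIrf1 0 d and 1.82 and 2.87 CPM in siCtr 0 d, and the summed fibroblast and pericyte markers at 0.498 to 0.848 CPM in siIrf1 0 d and 0.0909 and 0.196 CPM in siCtr 0 d. With TGFbeta Dcn had 87 counts over siIrf1 TGFbeta and 0 over siCtr TGFbeta (adjusted p = 0.00513). Their part in the cadherin result was not tested.

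**Figure D4:**
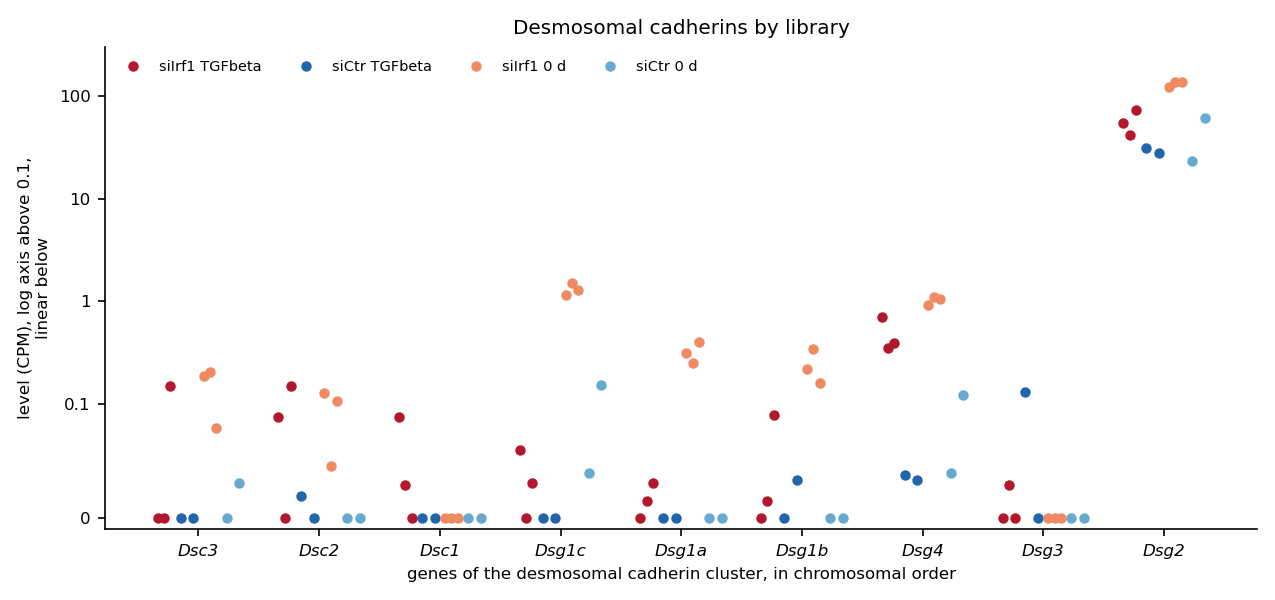
Levels (CPM; the axis is logarithmic above 0.1 and linear below) of the 9 desmosomal cadherin genes in each library, in chromosomal order and by group. The siIrf1 0 d libraries stand highest for Dsg1c, Dsg1a, Dsg1b, Dsg4 and Dsg2, and Dsg2 is the only gene above 2 CPM.

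The genes that work beside desmosomes gave a mixed picture with TGFbeta, beside 32.5% of all genes tested called in siCtr cells and 21.3% in siIrf1 cells. In siCtr cells 3 of 5 simple epithelial keratins rose and 1 fell (median 0.95; 3 to 4 and 1 when 1 library was left out). Krt7 rose by 2.78 and Krt20 by 2.02, while Krt19 fell by 2.99 (adjusted p = 6.51e-05, 1.38e-05 and 1.92e-04). In siIrf1 cells 2 rose and 1 fell (median 0.65; 1 to 3 and 0 to 1), with Krt20 at 1.60 (adjusted p = 2.19e-05). Of 6 stratified and basal keratins tested 2 rose and 1 fell in siCtr cells (median 1.11; 2 to 3 and 1), and 3 rose and 1 fell in siIrf1 cells (median 1.81; 2 to 4 and 1). The 2 that rose in siCtr cells, Krt17 and Krt16, passed the filter on low counts only through siCtr TGFbeta, where they are highest. The 3 that rose in siIrf1 cells, Krt14, Krt6a and Krt16, also passed it only through libraries with TGFbeta. These rises therefore add no support to the counts. The basal keratin Krt5 fell in both kinds of cells, with -3.45 in siCtr cells and -1.83 in siIrf1 cells (adjusted p = 2e-04 and 0.00226).

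Among 6 hemidesmosome genes, whose proteins fix keratin to the basement membrane, 2 rose and 0 fell in siCtr cells (median 0.68; 1 to 3 and 0) and the same numbers in siIrf1 cells (median 0.86; 0 to 3 and 0). In siCtr cells Col17a1 rose by 3.35 (adjusted p = 0.00503), with 1.08 CPM with TGFbeta and 0.109 CPM without it. It passed the filter only through libraries with TGFbeta, so its test is given as description. Of 8 adherens junction genes 4 rose and 1 fell in siCtr cells (median 0.45; 3 to 4 and 0 to 1), and 2 rose and 0 fell in siIrf1 cells (median 0.37; 1 to 3 and 0). Vinculin (Vcl) rose in both, by 1.51 in siCtr cells and 0.92 in siIrf1 cells (adjusted p = 1.68e-04 and 0.00139), whereas E-cadherin (Cdh1) was the gene that fell in siCtr cells (-0.87, adjusted p = 0.00256; uncalled without siCtr TGFbeta replicate 2). Of 8 kinases and proteases that act on desmosomes 2 rose and 0 fell in siCtr cells (median 0.87; 1 to 6 and 0) and 1 rose and 0 fell in siIrf1 cells (median 0.44; 1 to 3 and 0). The protease gene Mmp9 had 0.620 CPM in siIrf1 TGFbeta, 4.58 CPM in siCtr TGFbeta and 2 counts over all 5 libraries without TGFbeta. Mmp9 too passed the filter only through libraries with TGFbeta, so its rise in both kinds of cells adds no support to the counts. The number of kinases and proteases that rose in siCtr cells was 6 without siCtr 0 d replicate 3 and 5 without siIrf1 TGFbeta replicate 2. Corrected for length and GC, 4 hemidesmosome genes rose and 1 fell in siCtr cells, 4 kinases and proteases rose and 1 fell, 4 simple keratins rose and 1 fell, and 3 adherens junction genes rose and 1 fell. In siIrf1 cells the correction gave 3 simple keratins up and 1 down and 2 kinases and proteases up, with the other counts as before.

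With siIrf1 and no TGFbeta, where 31.8% of all genes tested were called, the same lists gave these counts. Of simple epithelial keratins 1 rose and 0 fell (median -0.06; 0 to 2 and 0), of stratified keratins 1 and 0 (median -0.21; 0 to 1 and 0 to 1), of hemidesmosome genes 0 and 3 (median -0.38; 0 to 2 and 1 to 3), of adherens junction genes 0 and 0 (median 0.03; 0 to 1 and 0 to 1), and of kinases and proteases 0 and 0 (median 0.08; 0 to 2 and 0 to 1). Corrected for length and GC, simple keratins had 3 up and 0 down, stratified keratins 1 and 0, hemidesmosome genes 0 and 2, adherens junction genes 1 and 0, and kinases and proteases 0 and 3. The hemidesmosome genes that fell were Cd151, Plec and Itgb4 (-0.70, -1.14 and -0.72), each uncalled without at least 1 library (without siCtr 0 d replicate 1 for Cd151 and Itgb4, siIrf1 0 d replicate 1 or 3 for Plec and Itgb4, and others). The correction ended the call of Cd151 (-0.31, adjusted p = 0.0518) and left Plec at -0.97 and Itgb4 at -0.46 (adjusted p = 0.0122 and 0.0312).

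With TGFbeta and siIrf1, simple epithelial keratins had 1 up and 2 down (median -0.53; 0 to 1 and 0 to 3), stratified keratins 2 and 2 (median 0.02; 0 to 2 and 2), hemidesmosome genes 0 and 2 (median -0.19; 0 and 0 to 2), adherens junction genes 1 and 2 (median -0.21; 0 to 1 and 0 to 2), and kinases and proteases 0 and 2 (median -0.31; 0 and 1 to 3). Of all genes tested 18% were called in this comparison, 9.72% up and 8.28% down. The stratified keratins Krt17 and Krt16 were lower with siIrf1 whichever library was left out (-3.21 to -2.64 and -2.87 to -2.41). Both passed the filter only through siCtr TGFbeta, where they are highest. Their tests are therefore given as description, and the 2 stratified keratins counted as down add no support. Krt17 had 0.230 CPM in siIrf1 TGFbeta and 1.80 CPM in siCtr TGFbeta (-2.90, adjusted p = 0.00138), and Krt16 0.152 CPM in siIrf1 TGFbeta and 0.968 CPM in siCtr TGFbeta (-2.62, adjusted p = 0.00386). Mmp9 fell by 2.90 (adjusted p = 7.97e-04). Most of the other calls in these 5 lists were lost without siCtr TGFbeta replicate 2 or 3. In the interaction the lists had 0 to 1 called up and 0 to 1 down, beside 4.12% of all genes tested called, 2.8% up and 1.32% down.

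Likeness between the members is given as Pearson's r of log2 CPM over the 10 libraries, for description only, since libraries of a group share their treatment. Among the plaque genes it was 0.907 for Pkp1 and Pkp2, 0.772 for Pkp1 and Jup, 0.742 for Pkp3 and Jup, 0.707 for Pkp1 and Pkp3, 0.682 for Pkp2 and Jup, and 0.508 for Pkp2 and Pkp3. Ppl was negative with Pkp2 (-0.953), Pkp1 (-0.827), Jup (-0.535) and Pkp3 (-0.268), and Dsg2 with Pkp3 (-0.878), Jup (-0.751), Pkp1 (-0.571) and Pkp2 (-0.414). Outside the members, of the genes averaging 5 CPM or more, the gene most like Pkp1 was Sema4f (0.994). It was Lrp12 for Pkp2 (0.994), Wdr45 for Pkp3 (0.969), Inava for Jup (0.985), Nfat5 for Dsp (0.973), Cyp4b1 for Ppl (0.988), Lrrc49 for Dsg2 (0.982) and Atp5md for Evpl (0.910).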

How the data were processed

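RNA was sequenced from 10 libraries of NMuMG/E9 cells made with a stranded kit, per the labels' protocols. The table that the authors deposited holds raw whole-number counts for each gene and library, and a gene length. The submitters' processing notes name STAR and the build mm10 (GRCm38). How reads were counted, strand use included, is not given in the sources used here. Dsg2, Dsp and Pkp1 each overlap 1 other annotated gene that is not in the table, whose reads could not be told from theirs. Symbols came from RefSeq (GRCm38.p6) for 24374 Entrez identifiers and GENCODE M21 for 7, with 73 unmatched (0.211 to 1.5% of a library's counts).

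The tests used edgeR 4.0.16 under R 4.3.3: TMM scaling, filterByExpr (minimum count 10; 13135 genes kept) and robust quasi-likelihood tests from a single model with 4 group terms over the 10 libraries. Adjusted p-values are Benjamini-Hochberg values with a threshold of 0.05, and each SE is |log2 fold change| / sqrt(F). Counting intervals are exact 95% intervals and, like floors of 3 counts, cover counting error only. Chi-square per degree of freedom between replicates was 24.2 to 314, and none was counted as a copy. The members, the 15 other gene and marker lists and the tests were chosen with earlier results of these data known. Named are all members, Irf1, up to 3 called genes per list and comparison with the smallest adjusted p, and the genes most correlated with each member. Outside that rule, and chosen after their values were seen, are Krt8, Krt10, Krt18, Pdgfrb, Epcam, Prlr, Krt1, Lor, Ptprc, Dcn, Pkp4, Dsg1b, Dsg3, Dsc1 and Dsc3. They describe the cells, the plakophilins and the cadherin cluster.

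Alternatives were RLE size factors, no filter (at least 1 count), a stricter filter (2 CPM in 3 libraries), DESeq2 1.42.0, a fit of only the groups compared, a block for replicate number, correction for length and GC (splines with 5 degrees of freedom, as edgeR offsets; GC known for 95% of genes), that with the block, and leaving out each library. Same-numbered siIrf1 libraries with and without TGFbeta deviated together from their group means (correlations 0.136, 0.448 and 0.302), so the numbers may pair them. Other same-numbered pairs did not all deviate together, and differently numbered pairs were not compared. The main tests used no pairing, and the block is an alternative only.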

Additional observations from a re-analysis of the deposited data

Results flagged for a closer look

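The TGFbeta effect differed between siIrf1 and siCtr cells, by a test of the interaction, for 2 desmosome genes. For Pkp1 the difference was -4.64 ± 0.979 on the log2 scale (edgeR, adjusted p = 0.0295). Its levels were 1.93 to 2.60 CPM in siIrf1 TGFbeta, 23.4 and 25.3 CPM in siCtr TGFbeta, and 0.136 CPM or less in all 5 libraries without TGFbeta. For Ppl the difference was 1.11 ± 0.224 (edgeR, adjusted p = 0.0237). Its levels were 54.6 to 63.0 CPM in siIrf1 TGFbeta, 71.5 and 81.9 CPM in siCtr TGFbeta, 205 to 224 CPM in siIrf1 0 d, and 512 and 680 CPM in siCtr 0 d. Both calls were lost on leaving out either siCtr TGFbeta library. Pkp1 passed the filter on low counts only through libraries with TGFbeta, so its test is given as description.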

How the results depend on the processing

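The 40 changes of the 8 members tested gave 701 values under 18 alternatives: no called change reversed (0), 28 lost the call, 25 gained it and 648 kept their side of the threshold. The number of members called with siIrf1 without TGFbeta was 3, beside 31.8% of all genes tested. It became 5 after correction for length and GC and 6 with the replicate block as well. The share of all genes under these settings is not given for this comparison, so 5 and 6 are not read against it. With siIrf1 and TGFbeta the number of members called was 2, beside 18% of all genes tested. It became 4 under both of these settings, beside 3597 of all genes called after the correction alone. With the stricter filter, under which Pkp3 and Evpl were not tested, it became 1. For the interaction the number was 2, beside 4.12% of all genes tested, and became 1 with the stricter filter. The share of all genes is not given for the stricter filter, so these counts of 1 are not read against it. Leaving out each library in turn gave 3 to 4 members for TGFbeta in siCtr cells, 4 to 6 in siIrf1 cells, 2 to 5 and 1 to 4 for siIrf1 without and with TGFbeta, and 0 to 2 for the interaction. The numbers of all genes called moved too when a library was left out, over the ranges given below. The replicate block alone changed no call of a member but that of Jup (-0.78, adjusted p = 0.00858), and same-numbered libraries correlated at -0.393 to 0.448. Over all genes, counts of calls became 4375, 3597 and 1252 after correction for length and GC for TGFbeta in siIrf1 cells (2799; 1912 up and 2463 down against 1523 and 1276), siIrf1 with TGFbeta (2365) and the interaction (541). They were 4353 for the first and 937 for the last with the block as well, and 1166 for the interaction in DESeq2. Without 1 library they ranged over 2297 to 5159, 1957 to 3300, 1700 to 5192, 762 to 2978 and 122 to 1590 for the effect of TGFbeta with siCtr, its effect with siIrf1, the effect of siIrf1 without TGFbeta, that with TGFbeta, and the interaction. Depth limits Pkp1 without TGFbeta, Pkp3, Evpl, Dsc2 and the skin-type cadherins.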

Other observations

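Periplakin is also a part of the cornified envelope, and 7 of 9 cornified envelope genes and plakin relatives were tested. With TGFbeta 1 rose and 3 fell in siCtr cells, and 3 rose and 3 fell in siIrf1 cells, beside 32.5% and 21.3% of all genes called. Involucrin (Ivl), a scaffold of that envelope, rose in both, by 4.50 in siIrf1 cells and 6.06 in siCtr cells (adjusted p = 2.30e-05 and 1.86e-05), and was at 3.37 to 3.87 CPM in siIrf1 TGFbeta and 5.03 and 6.64 CPM in siCtr TGFbeta. Without TGFbeta it had 18 counts over siIrf1 0 d and 5 over siCtr 0 d. Ivl passed the filter on low counts only through libraries with TGFbeta. Its tests are therefore given as description and add no support to the counts. The crosslinking enzyme Tgm1 fell in both, by 1.85 in siIrf1 cells and 2.58 in siCtr cells (adjusted p = 3.50e-04 and 1.95e-04). With siIrf1 0 rose and 2 fell without TGFbeta, and 1 rose and 2 fell with it, beside 31.8% and 18% of all genes called. The calls of siIrf1 with TGFbeta were lost without siCtr TGFbeta replicate 2. Without TGFbeta the small proline-rich envelope genes Sprr1b and Sprr1a fell by 3.63 and 2.04 (adjusted p = 3.79e-04 and 5.36e-04), as Ppl did, with Sprr1b at 5.46 to 14.5 CPM in siIrf1 0 d and 103 and 155 CPM in siCtr 0 d.

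Of 14 transcription factors of epithelial and mesenchymal state 8 were tested, beside the same shares of all genes called as for the envelope genes. With TGFbeta 5 rose and 2 fell in siCtr cells (2 rose without siCtr TGFbeta replicate 2), and 3 rose and 1 fell in siIrf1 cells. The repressor Snai1 was at 6.05 ± 1.81 CPM in siIrf1 TGFbeta (SD, n = 3) and 13.1 ± 2.68 CPM in siCtr TGFbeta (SD, n = 2), a fall of 1.11 (adjusted p = 0.0261) that was not called without either siCtr TGFbeta library or siIrf1 TGFbeta replicate 1 or 3. With siIrf1 1 rose and 4 fell without TGFbeta (0 to 2 and 1 to 4 when 1 library was left out; 1 and 2 corrected for length and GC), and 0 rose and 3 fell with it (0 and 4 corrected). Grhl1, a grainyhead factor known to regulate desmosomal cadherins in skin, fell by 1.48 without TGFbeta (adjusted p = 0.00171), with 2.94 ± 0.542 CPM in siIrf1 0 d (SD, n = 3) and 8.21 ± 0.720 CPM in siCtr 0 d (SD, n = 2). With TGFbeta Grhl2 and Elf3 fell by 2.59 and 1.34 (adjusted p = 7.08e-04 and 0.00343). Grhl2 had 0.15 to 0.295 CPM in siIrf1 TGFbeta and 1.27 CPM in both siCtr TGFbeta libraries. It passed the filter on low counts only through siCtr libraries, where it is higher, so its test is given as description. Apart from that of Snai1, the edgeR calls of the genes named here held whichever library was left out.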
